A study of Homo sapiens with 14 samples.

Results

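SW620 is a cell line from a lymph node metastasis of a human colorectal cancer, and its cells form compact colonies in culture. The comparison described here sets day 9 of a culture kept without passage against day 6, both within the period of colony growth. The 4 single-cell RNA-seq libraries were SW620-FLAG on day 6, SW620-TET2CD on day 6, SW620-FLAG on day 9 and SW620-TET2CD on day 9, with 1 library for each line and day. SW620-FLAG carries an empty FLAG vector and is called SW620 in the sample labels, and SW620-TET2CD overexpresses the catalytic domain of TET2, an enzyme that oxidises methylated cytosine. They are called the FLAG line and the TET2CD line here, and paired levels give day 6 first. UMIs (unique molecular identifiers, each standing for 1 captured RNA molecule) were summed over the cells of a library that had between 200 and 4500 genes, between 1000 and 20000 UMIs, and no more than 10% of UMIs from mitochondrial genes. These limits kept 27657 of 37507 barcodes, out of 48282 kept and 67056 barcodes in all 8 single-cell libraries of the series.

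Colonies of cancer cells that are not passaged become crowded and thick, and the cells within them can have less oxygen and nutrients. Low oxygen stabilises the HIF transcription factors, which bind a short DNA element and switch on genes for anaerobic metabolism, mitophagy and blood vessel growth. Sterol shortage works through the SREBP factors, which switch on genes for cholesterol and fatty acid synthesis, and oxidants work through NRF2, which switches on genes for glutathione and iron handling.

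Cells and depth differed between the libraries in ways that bear on the sums. The kept UMIs summed to between 54414908 and 74185723 per library. The median kept cell held 13479 UMIs on day 6 and 6640 on day 9 in the FLAG line, and 8616 then 11152 in the TET2CD line, so depth per cell moved in opposite directions in the lines. The mitochondrial share of kept UMIs was higher on day 9 in both, going from 5.25% to 7.54% with FLAG and from 3.93% to 7.19% with TET2CD. Barcodes over the mitochondrial limit made up 6.42% then 28.8% with FLAG and 6.58% then 19.9% with TET2CD. Any pair of the 4 libraries shared 7 to 18 kept barcodes. With 1 library per line and day, the day of culture cannot be told apart from the handling of that day's libraries. In sums of this kind, fewer cells using a gene and less RNA of it per cell cannot be told apart either.

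Of the 10 colon epithelium genes listed as a check, 8 had enough counts to be tested. The list summed to 12280 CPM (UMIs scaled to a common depth with edgeR's TMM library sizes) in SW620-FLAG on day 6. Its sum was at least 11320 CPM in each of the 4 libraries. The list holds the keratins KRT8, KRT18 and KRT19. In SW620-FLAG on day 6 a list of 8 keratins summed to 11580 CPM, and EPCAM was at 678 CPM. The 21 intestinal differentiation genes summed to 571 CPM in that library. The lists of markers of other cells summed over the 4 libraries to 7.95 to 17.6 CPM for immune cells, 9.72 to 13.0 CPM for neuroendocrine cells, 0.403 to 1.62 CPM for endothelium and 1.05 to 3.25 CPM for red cells. Among the listed markers, PTPRC of leukocytes, KDR of endothelium and COL1A2 and PDGFRA of fibroblasts were at or under 0.0141 CPM in all 4 libraries. Not all members were so low: 3 of 7 immune, 3 of 5 endothelial and 4 of 7 fibroblast genes had enough counts to be tested. The immune list summed to 7.95 then 9.15 CPM with FLAG and to 15.5 then 17.6 CPM with TET2CD. The fibroblast list summed to 16.6 to 30.4 CPM, nearly all of it LUM.

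From day 6 to day 9, 155 of 17478 genes tested passed an adjusted p of 0.05, or 0.887%. Of these 94 rose (0.538%) and 61 fell (0.349%). The test was edgeR's quasi-likelihood test with line as a block, two-sided, with Benjamini-Hochberg adjustment. It was fitted on all 8 single-cell libraries, which left 3 residual degrees of freedom. Each gene's spread was drawn toward a trend shared over genes, which counted as 8.55 prior degrees of freedom. All 155 genes moved in the same direction in both lines, and so did 70.0% of all tested genes. Fitted on the 4 libraries alone, 3631 of 16782 genes passed (21.6%), with 1600 higher (9.53%) and 2031 lower (12.1%). Only 1 residual degree of freedom was left in that fit, and every gene took its spread from the shared trend in full. With 1 of the 4 libraries left out, 6 genes were called without day 6 FLAG (5 of them among the 155), 23 without day 6 TET2CD (21 among them), 1 without day 9 FLAG (1 among them) and 46 without day 9 TET2CD (33 among them). Without a day 15 library 1363 (FLAG) or 1315 (TET2CD) genes were called.

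**Figure D1:**
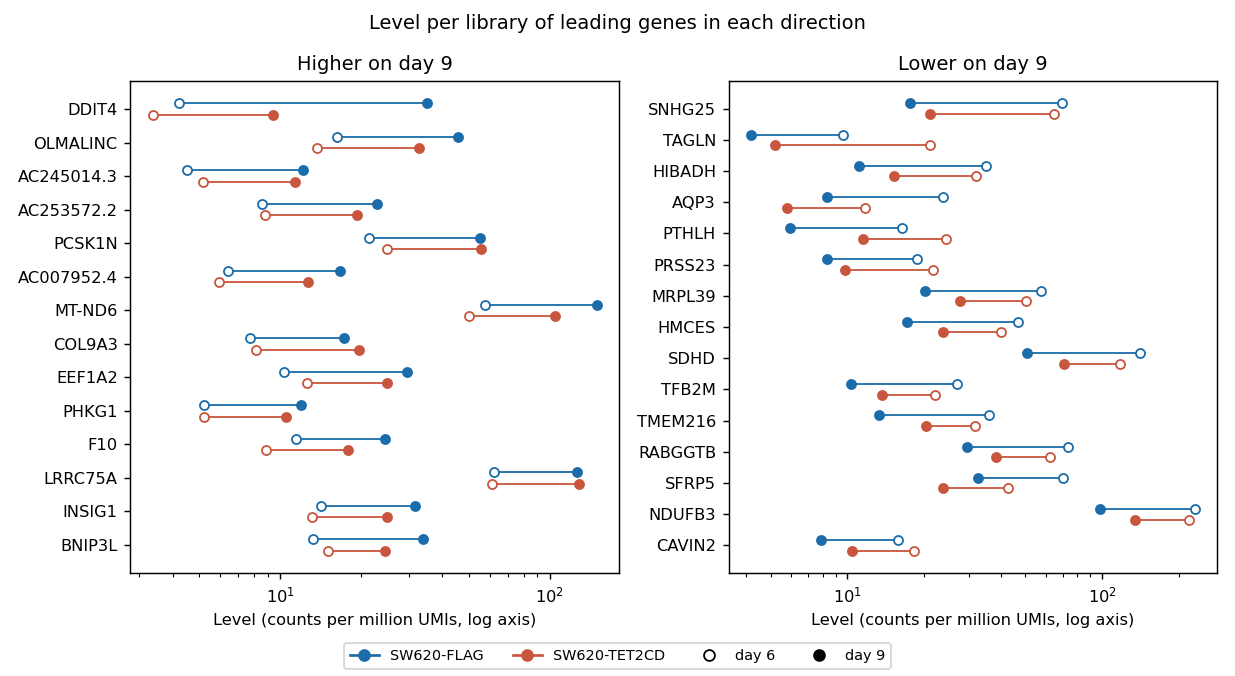
Level in CPM (log axis) of 14 of the most increased and the 15 most decreased called genes with a mean of at least 8 CPM; open circles are day 6, filled circles day 9, and each line joins the libraries of 1 cell line. Only genes that moved the same way in SW620-FLAG and SW620-TET2CD were chosen for display. DDIT4 had the longest line, from 4.20 to 35.2 CPM in SW620-FLAG.

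Among called genes the 4 with the largest fitted rise were NDUFA4L2, DDIT4, MIR210HG and NDRG1, all known for their response to low oxygen. DDIT4, an inhibitor of mTORC1 that low oxygen and stress induce, was at 4.20 CPM on day 6 and 35.2 CPM on day 9 in the FLAG line. The TET2CD line gave 3.36 then 9.38 CPM. Both day 9 values lay above both day 6 values, and the fitted log2 fold change was 2.40 (SE 0.42, adjusted p = 0.0268 by edgeR). Without the FLAG library of day 9 it was 1.44 (adjusted p = 0.359 by edgeR). BNIP3L, a receptor for mitophagy, was at 13.3 then 34.0 CPM in the FLAG line and 15.0 then 24.5 CPM in the TET2CD line, a log2 fold change of 1.04 (SE 0.17, adjusted p = 0.0237 by edgeR).

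Other members of the group were at low levels and were named after their values were seen, since their means lay under 8 CPM. NDUFA4L2, a mitochondrial protein that lowers complex I activity in low oxygen, went from 19 to 360 UMIs in the FLAG line and from 10 to 258 in the TET2CD line, with a log2 fold change of 4.72 (SE 0.61, adjusted p = 0.00931 by edgeR). NDRG1 was at 0.359 then 2.95 CPM in the FLAG line and 0.647 then 1.34 CPM in the TET2CD line, and rose by 2.04 on the log2 scale (SE 0.40, adjusted p = 0.0423 by edgeR). Its value without the FLAG library of day 9 was 1.29 (adjusted p = 0.411 by edgeR). MIR210HG, the host transcript of the hypoxia-induced microRNA miR-210, was not in the group's list. It was at 1.28 then 7.55 CPM in the FLAG line and 0.942 then 3.56 CPM in the TET2CD line, a rise of 2.28 (SE 0.26, adjusted p = 0.00644 by edgeR).

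Of 26 hypoxia genes tested, 4 rose and 0 fell, against 0.538% and 0.349% of all genes, and their median log2 fold change was 0.33, against 0.01 over all tested genes. With the 4 libraries alone, 10 were higher and 2 lower, against 9.53% and 12.1% of all genes. VEGFA, the angiogenic growth factor, was at 8.32 then 14.5 CPM in the FLAG line and 6.71 then 9.23 CPM in the TET2CD line, with a log2 fold change of 0.63 (SE 0.14) that missed the threshold in edgeR (adjusted p = 0.0619) and passed it in DESeq2 (0.0183). CA9 was at 28.2 then 34.9 CPM in the FLAG line and 12.9 then 17.8 CPM in the TET2CD line, a log2 fold change of 0.37 (SE 0.23, adjusted p = 0.46 by edgeR). HIF1A itself differed by -0.03 (SE 0.13). Of 24 glycolysis genes 0 passed, against 0.887% of all genes, with a median log2 fold change of 0.0094. Their summed level went from 13610 to 14260 CPM with FLAG and from 13320 to 11450 CPM with TET2CD.

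The DDIT4 and MIR210HG promoters are shown because both genes rose and both hold the core letters ACGTG of the hypoxia response element. The 250 bases before each gene's start are from RefSeq on GRCh38.p14. They are printed 5′ to 3′ on the gene's strand, with the core in capitals. DDIT4 lies on the plus strand at chr10:72273674-72273923 and MIR210HG on the minus strand at chr11:568458-568707.
DDIT4: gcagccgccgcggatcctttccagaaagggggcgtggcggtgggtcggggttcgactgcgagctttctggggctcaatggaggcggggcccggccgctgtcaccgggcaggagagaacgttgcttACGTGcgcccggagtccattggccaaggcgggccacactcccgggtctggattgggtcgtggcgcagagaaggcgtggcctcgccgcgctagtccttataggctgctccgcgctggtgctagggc
MIR210HG: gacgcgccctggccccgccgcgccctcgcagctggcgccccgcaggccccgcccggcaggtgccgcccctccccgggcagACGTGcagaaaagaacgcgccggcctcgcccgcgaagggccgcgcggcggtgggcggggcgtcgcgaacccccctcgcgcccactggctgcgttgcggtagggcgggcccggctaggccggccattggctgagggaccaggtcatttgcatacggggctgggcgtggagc
Searched on both strands, ACGTG was found in 13 of the 21 hypoxia genes with a promoter in the table (61.9%) and in 2643 of 11487 tested genes with one (23.0%). The list was made of known hypoxia targets, so the first share is a description of the list.

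The UMIs of DDIT4 were held by few cells. In SW620-FLAG on day 9, 239 of 7509 cells had 2 or more DDIT4 UMIs, and these held 1264 of the 1804 DDIT4 UMIs. On day 6, 26 of 5547 cells did, holding 103 of 292. The 75 cells richest in DDIT4, 1% of the day 9 library, held 44.1% of its UMIs. For BNIP3L, with 1743 UMIs in that library, the 75 richest cells held 12.3%, and for OLMALINC, with 2343 UMIs, 9.77%. SW620-TET2CD on day 9 had 95 cells of 6447 with 2 or more DDIT4 UMIs, holding 354 of 677.

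On day 9 other hypoxia genes were at higher levels in those cells. In SW620-FLAG, NDUFA4L2 was at 80.0 CPM of the cells' own UMIs where DDIT4 had 2 or more UMIs and at 4.29 CPM in the other cells. CA9 was at 131 and 29.8 CPM, EGLN3, an oxygen sensor that marks HIF for breakdown, at 143 and 23.4 CPM, and P4HA1, a collagen prolyl hydroxylase, at 139 and 33.9 CPM. In SW620-TET2CD the same order held for NDUFA4L2, at 96.1 and 2.28 CPM, and for CA9, at 119 and 16.3 CPM. On day 9 the median cell held 6268 UMIs in the first set and 6654 in the second in the FLAG line, and 9680 and 11171 in the TET2CD line. The mitochondrial share was 7.22% and 7.55% in SW620-FLAG. On day 6 the cells with 2 or more DDIT4 UMIs numbered 26 with FLAG and 17 with TET2CD. They held 0 NDUFA4L2 and 0 MIR210HG UMIs of 369697 and 186260, which allows up to 8.11 and 16.1 CPM. These limits lie under the day 9 levels of NDUFA4L2 in such cells and above its levels in the other day 6 cells, 0.259 CPM with FLAG and 0.135 CPM with TET2CD. BNIP3L was at 27.0 CPM in them and 12.4 CPM in the other cells with FLAG (10 UMIs in the first set), and at 64.4 and 14.3 CPM with TET2CD (12 UMIs). VEGFA was at 64.9 and 7.56 CPM with FLAG (24 UMIs) and at 10.7 and 6.42 CPM with TET2CD (2 UMIs). CA9 was at 29.8 and 26.6 CPM with FLAG (11 UMIs) and at 5.37 and 12.4 CPM with TET2CD (1 UMI). Cells of 1 library are not replicates, so these are values without a test.

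**Figure D2:**
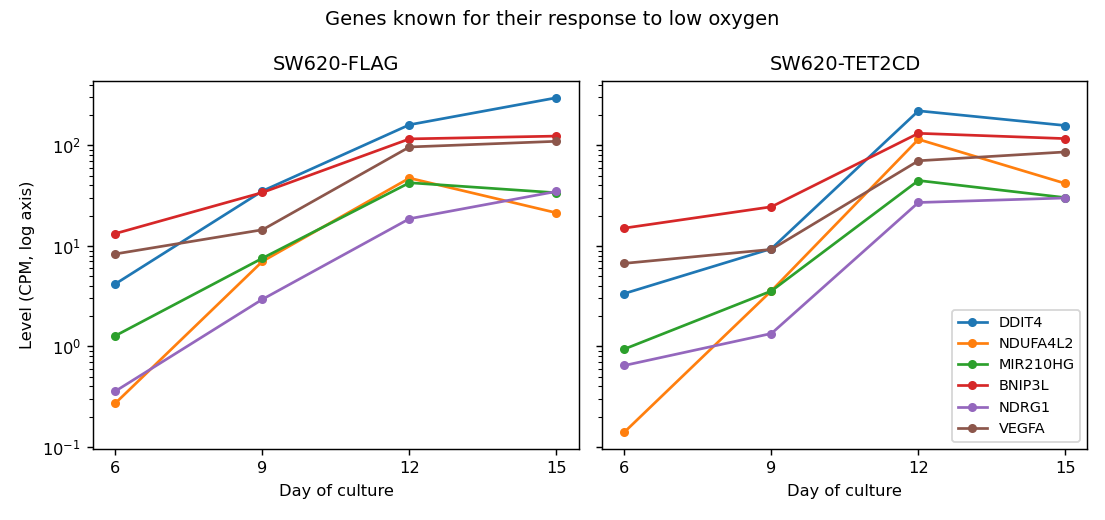
Level in CPM (log axis) of 6 genes known for their response to low oxygen against day of culture, 1 library per point, for SW620-FLAG (left) and SW620-TET2CD (right). All of the genes shown but VEGFA are called rises, so their higher level on day 9 is not a separate result. Of the 26 hypoxia genes tested, 16 were higher on day 9 in both lines. On day 12 DDIT4 reached 161 CPM (FLAG) and 221 CPM (TET2CD).

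The day 9 levels of these genes lay well under those of the later days. DDIT4 was at 161 CPM on day 12 and 298 CPM on day 15 in the FLAG line, and at 221 and 158 CPM in the TET2CD line. NDUFA4L2 was at 47.3 and 115 CPM on day 12 in the respective lines, against 7.02 and 3.58 CPM on day 9.

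All 13 mitochondrially encoded protein genes were higher on day 9 in both lines, against 36.1% of all tested genes, with a median log2 fold change of 0.69, and 1 of them rose, against 0.538% of all genes. That gene was MT-ND6, the complex I subunit encoded on the opposite strand to the rest, at 57.6 and 150 CPM in SW620-FLAG and 50.1 and 105 CPM in SW620-TET2CD (log2 fold change 1.24, SE 0.25, adjusted p = 0.0454 by edgeR). With the 4 libraries alone all 13 were higher, against 9.53% of all genes. These genes are the ones the limit on mitochondrial UMIs is set on, and their share rose as given above; the part of cell quality in this result was not tested.

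Of 76 nuclear genes for oxidative phosphorylation, 72 had a fold change below 0 and 61 were lower in both lines, against 48.4% and 33.8% of all tested genes. SDHD and NDUFB3 were the 2 that fell, against 0.349% of all genes, and 0 rose, against 0.538%. SDHD, the membrane anchor of complex II, was at 141 then 50.9 CPM in the FLAG line and 118 then 71.2 CPM in the TET2CD line, a log2 fold change of -1.07 (SE 0.21, adjusted p = 0.0401 by edgeR). NDUFB3, a complex I subunit, was at 232 then 98.6 CPM in the FLAG line and 221 then 135 CPM in the TET2CD line (-0.96, SE 0.19, adjusted p = 0.0418 by edgeR). The group's median was -0.23, and with the 4 libraries alone 33 members were lower and 0 higher, against 12.1% and 9.53% of all genes.

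TFB2M, MRPL39 and HIBADH, which encode mitochondrial proteins and belong to none of these lists, were among the 15 deepest falls. TFB2M, needed to start mitochondrial transcription, was at 26.9 then 10.3 CPM in the FLAG line and 22.1 then 13.7 CPM in the TET2CD line (log2 fold change -1.02, SE 0.16). MRPL39, a protein of the mitochondrial ribosome, was at 57.8 and 20.2 CPM and at 50.1 and 27.7 CPM in the same order (-1.16, SE 0.20). HIBADH, a mitochondrial enzyme of valine breakdown, was at 35.1 and 11.1 CPM and at 31.9 and 15.3 CPM (-1.34, SE 0.17). All of them passed the test, and both day 9 values lay under both day 6 values in each. On day 12 HIBADH measured 30.0 (FLAG) and 28.2 CPM (TET2CD), MRPL39 26.4 and 26.1 CPM, and TFB2M 12.4 and 13.5 CPM. SDHD was then at 80.0 and 76.8 CPM and NDUFB3 at 100 and 120 CPM.

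**Figure D3:**
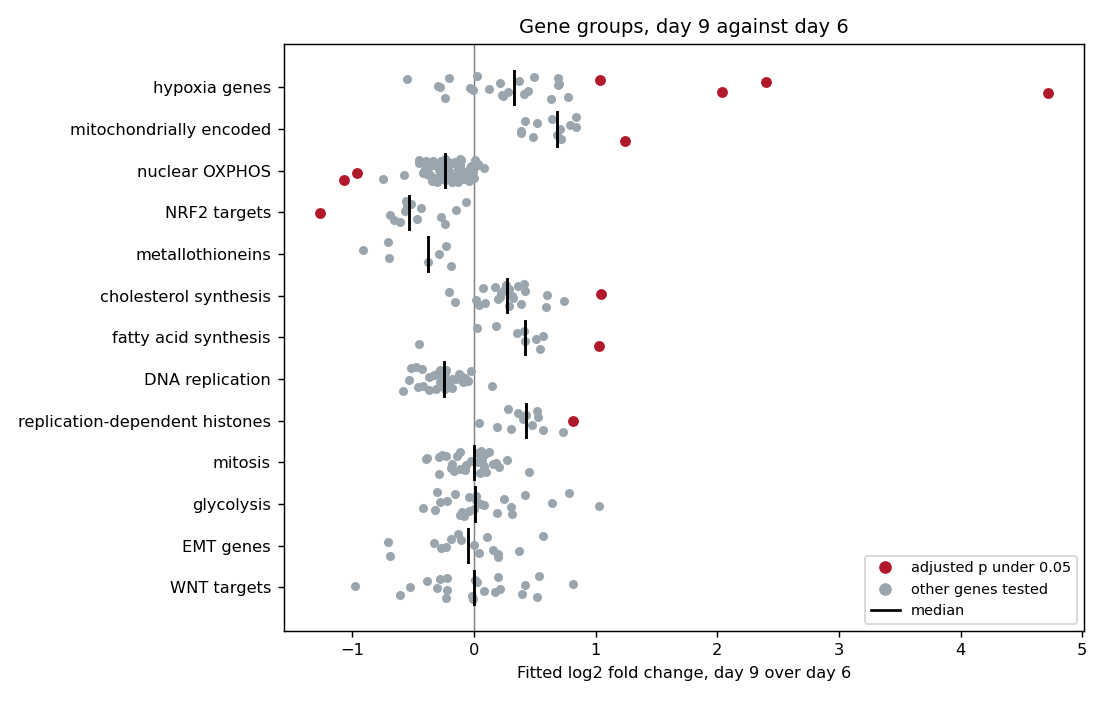
Fitted log2 fold change, day 9 over day 6, of each tested member of 13 gene groups; red points passed an adjusted p of 0.05, grey points did not, and black bars are medians. All mitochondrially encoded genes lay above 0 and all NRF2 targets below 0, while the mitosis, glycolysis, EMT and WNT groups were spread around 0.

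All 14 NRF2 targets tested had a fold change below 0 and were lower in both lines, against 33.8% of all tested genes, with a median of -0.53. HMOX1, the haem oxygenase, was the 1 that fell (0.349% of all genes fell), from 3.32 to 1.6 CPM in the FLAG line and from 4.22 to 1.52 CPM in the TET2CD line (log2 fold change -1.26, SE 0.26, adjusted p = 0.0459 by edgeR). Over the alternative settings its log2 fold change lay between -1.51 and -0.52. NQO1, a quinone reductase, was at 539 then 343 CPM in the FLAG line and 594 then 359 CPM in the TET2CD line, a log2 fold change of -0.69 (SE 0.21, adjusted p = 0.15 by edgeR). With the 4 libraries alone 11 of them were lower, against 12.1% of all genes, and 0 higher. The 7 metallothioneins and zinc genes had a median of -0.38, and 0 passed, against 0.887% of all genes. With the 4 libraries alone 4 of these 7 were lower, against 12.1% of all genes, and 0 higher.

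Of the lipid synthesis genes, 22 of 24 for cholesterol and 9 of 10 for fatty acids had a fold change above 0, against 51.5% of all tested genes. INSIG1, which holds the SREBP escort protein in the endoplasmic reticulum and is itself an SREBP target, was at 14.2 then 31.8 CPM in the FLAG line and 13.2 then 24.9 CPM in the TET2CD line (log2 fold change 1.05, SE 0.16, adjusted p = 0.0208 by edgeR). SCD, the desaturase that makes oleate, was at 69.2 then 145 CPM in the FLAG line and 59.2 then 118 CPM in the TET2CD line (1.03, SE 0.16, adjusted p = 0.0208 by edgeR). INSIG1 was the 1 of 24 cholesterol genes that rose, against 0.538% of all genes, and 20 were higher in both lines, against 36.1%. SCD was the 1 of 10 fatty acid genes that rose, with 9 higher in both lines. With the 4 libraries alone 14 of 24 and 7 of 10 were higher, against 9.53% of all genes, and 0 and 1 lower. The SCD UMIs were spread over many cells: the 75 richest cells held 5.69% of them in SW620-FLAG on day 9.

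DHRS3, a reductase that returns retinal to retinol, was named after its values were seen. It was at 1.12 then 5.46 CPM in the FLAG line and 3.40 then 9.01 CPM in the TET2CD line (log2 fold change 1.75, SE 0.23, adjusted p = 0.0103 by edgeR).

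The other leading rises had no single role in common. OLMALINC, a long noncoding RNA whose gene (chr10, 100373099 to 100454043, GRCh38) lies beside SCD (100347233 to 100364826), was at 16.3 then 45.7 CPM in the FLAG line and 13.8 then 32.7 CPM in the TET2CD line (1.37, SE 0.14, adjusted p = 0.0041 by edgeR). PCSK1N, an inhibitor of the prohormone convertase PCSK1, COL9A3, a chain of collagen IX, EEF1A2, an elongation factor of translation, PHKG1, a subunit of phosphorylase kinase, F10, coagulation factor X, and LRRC75A had log2 fold changes of 1.05 to 1.26. AC245014.3, AC253572.2 and AC007952.4, named by clone only, had 1.24 to 1.28. The PRSS2 trypsinogen, named after its values were seen, was at 5.39 then 15.2 CPM in the FLAG line and 3.14 then 7.83 CPM in the TET2CD line (1.41, SE 0.18, adjusted p = 0.0089 by edgeR). The richest 1% of cells on day 9 held 68.0% of its UMIs with FLAG and 77.9% with TET2CD, and the cells with a PRSS2 UMI numbered 210 of 5547 then 303 of 7509 with FLAG and 115 of 8154 then 183 of 6447 with TET2CD. Its paralogues are near copies, so the split of reads between them is uncertain. Among genes with a match in GENCODE, lncRNAs made up 25 of the 93 that rose, 9 of the 61 that fell and 22.6% of all tested genes.

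The other leading falls were of mixed roles. SNHG25, a small nucleolar RNA host gene, was at 69.6 then 17.7 CPM in the FLAG line and 64.8 then 21.1 CPM in the TET2CD line (log2 fold change -1.79, SE 0.16, adjusted p = 0.00194 by edgeR). TAGLN, an actin-binding protein of contractile and mesenchymal cells, was at 9.56 then 4.18 CPM in the FLAG line and 21.0 then 5.17 CPM in the TET2CD line (-1.67, SE 0.28, adjusted p = 0.0237 by edgeR), and its value without the TET2CD library of day 6 was -0.98 (adjusted p = 0.186). PTHLH, the parathyroid hormone-related peptide, was at 16.4 then 5.97 CPM in the FLAG line and 24.4 then 11.5 CPM in the TET2CD line (-1.28, SE 0.21), and on day 12 at 0.396 and 1.61 CPM. AQP3, a water and glycerol channel, fell by 1.29 on the log2 scale and SFRP5, a secreted WNT inhibitor, by 0.98. PRSS23, a secreted protease, fell by 1.16, and CAVIN2, a caveola protein, by 0.90. HMCES, which protects abasic sites in DNA, TMEM216, a cilium protein, and RABGGTB, a subunit of the enzyme that prenylates RAB proteins, had log2 fold changes of -1.08 to -0.99. TMEM216 was at -0.64 without the FLAG library of day 9. On day 12 SNHG25, TMEM216 and RABGGTB were above their day 9 levels in both lines. TAGLN, PTHLH, AQP3, SFRP5, PRSS23 and CAVIN2 were below theirs in both lines, and HMCES was above in the FLAG line only.

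Further falls at low levels were named after their values were seen. CSF2, the cytokine GM-CSF, had 79 UMIs on day 6 and 1 on day 9 in the FLAG line, and 71 then 4 in the TET2CD line. On day 6, 2 cells of 5547 held 62 of the 79 UMIs and 9 cells of 8154 held 51 of the 71, so these sums rest on few cells. PLAU, the urokinase, was at 8.91 then 3.71 CPM in the FLAG line and 6.52 then 1.84 CPM in the TET2CD line (-1.54, SE 0.22, adjusted p = 0.0151 by edgeR). WNT11, EDN1 (endothelin 1) and THBS1 (thrombospondin 1) fell by 1.28, 1.13 and 0.87 on the log2 scale.

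**Figure D4:**
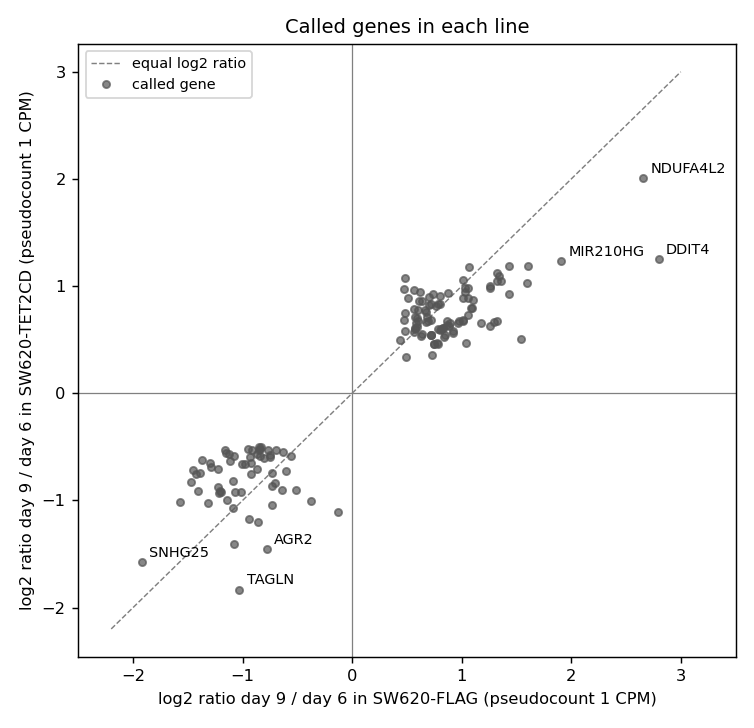
Log2 ratio of day 9 to day 6 (pseudocount 1 CPM) of the 155 called genes in SW620-FLAG (horizontal) and SW620-TET2CD (vertical), with the dashed line marking equal ratios. All points lie in the lower left or upper right part, and DDIT4 lies furthest to the right, at 2.80 (FLAG) and 1.25 (TET2CD).

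The fit selects genes that moved alike in both lines. The median absolute log2 ratio of the 155 genes was 0.863 with FLAG and 0.716 with TET2CD, and 105 of them had the larger absolute log2 ratio with FLAG. This difference was not tested. Of the genes with a mean of at least 8 CPM, DDIT4, IGFL2-AS1, PIF1, TET2 and MANCR had the largest differences toward SW620-FLAG. CALML3, ZFP36, MIAT, ABCB10 and TMEM128 had the largest toward SW620-TET2CD. TET2 was at 2.24 then 2.46 CPM in the FLAG line and 111 then 59.9 CPM in the TET2CD line, whose UMIs include those of the transgene where its RNA matches the gene. Its log2 fold change was -0.56 (SE 0.39, adjusted p = 0.507 by edgeR).

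Of 34 DNA replication genes, 33 had a fold change below 0 and 31 were lower in both lines, against 48.4% and 33.8% of all tested genes, with a median of -0.25. Of them 0 passed, against 0.887% of all genes. With the 4 libraries alone 17 were lower, against 12.1% of all genes. Of the 30 mitosis genes 0 passed, against 0.887% of all genes, and they had a median log2 ratio of 0.23 with FLAG and -0.25 with TET2CD. With the 4 libraries alone 2 of them were higher and 6 lower, against 9.53% and 12.1% of all genes. All 13 replication-dependent histone genes tested had a fold change above 0, against 51.5% of all tested genes, with a median of 0.43. Of these, 11 were higher in both lines, against 36.1% of all tested genes. Their median log2 ratio was 0.51 with FLAG and 0.18 with TET2CD. The list's summed level went from 1591 to 2278 CPM with FLAG and from 1869 to 1847 CPM with TET2CD. HIST1H2BD was the 1 that rose, against 0.538% of all genes, from 5.25 to 10.1 CPM in the FLAG line and from 5.55 to 8.97 CPM in the TET2CD line (0.81, SE 0.13, adjusted p = 0.0237 by edgeR).

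The study followed EMT, the change of epithelial cells toward a mesenchymal form, and WNT signalling through these cultures. Of 16 EMT genes tested 0 passed, with a median of -0.05, and of 22 WNT targets 0 passed, with a median of 0.00056, where 0.887% of all genes passed. With the 4 libraries alone 2 EMT genes were higher and 2 lower, and 5 WNT targets were higher and 6 lower, against 9.53% and 12.1% of all genes. VIM, the mesenchymal intermediate filament, was at 586 then 433 CPM in the FLAG line and 567 then 301 CPM in the TET2CD line (-0.69, SE 0.24, adjusted p = 0.200 by edgeR). CDH1, encoding E-cadherin, was at 26.2 then 30.8 CPM in the FLAG line and 32.8 then 39.2 CPM in the TET2CD line (0.25, SE 0.13, adjusted p = 0.393 by edgeR). CTNNB1, encoding β-catenin, differed by 0.06 (SE 0.17) and SNAI1 by -0.23 (SE 0.17). Of the other genes listed from the study, TCF7L1 differed by 0.52 (SE 0.19) and JUN by 0.42 (SE 0.17). ZEB1 differed by 0.20 (SE 0.15) and TGFB1 by 0.16 (SE 0.14). PPARD differed by 0.09 (SE 0.17), CCND1 by 0.01 (SE 0.16), FN1 by -0.13 (SE 0.25) and EPCAM by -0.21 (SE 0.17). Of the 15 genes of this list tested, 0 passed, against 0.887% of all genes. With the 4 libraries alone 3 were higher and 2 lower, against 9.53% and 12.1%. The study names RORA, SPARC and VEGFA as TET2 targets. RORA differed by -0.07 (SE 0.26), and SPARC had at most 0.0288 CPM and was not tested. VEGFA, given above with the hypoxia genes, differed by 0.63 (SE 0.14) and missed the threshold in edgeR. TJP3, a tight junction protein, was the 1 of 19 epithelial junction genes that rose, against 0.538% of all genes (1.30, SE 0.22, adjusted p = 0.0247 by edgeR), from 0.848 to 2.05 CPM in the FLAG line and from 0.689 to 1.71 CPM in the TET2CD line. Over the alternative settings its log2 fold change lay between 0.83 and 1.51.

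MALAT1 and NEAT1, nuclear RNAs that are often high in damaged cells, did not pass the reported edgeR test and were named after their values were seen. MALAT1 was at 7160 then 9874 CPM in the FLAG line and 6839 then 9406 CPM in the TET2CD line, a log2 fold change of 0.46 (SE 0.25, adjusted p = 0.385 by edgeR). NEAT1 was at 337 and 520 CPM and at 397 and 561 CPM in the same order (0.56, SE 0.18, adjusted p = 0.168 by edgeR). In DESeq2 NEAT1 passed (adjusted p = 0.0307) and MALAT1 did not (0.189). With the 4 libraries alone both passed in edgeR, as did 21.6% of all genes tested there. The part of these 2 RNAs in the other results was not tested.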

How the data were processed

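Single-cell libraries were made with the 10x Genomics 3′ v3.1 kit. The authors deposited, per library, the UMI count of each of 36601 genes in each barcode, written by Cell Ranger 4.0 against GRCh38. Bulk libraries were not used here. Counts were summed per library over cells within the study's limits (200 to 4500 genes, 1000 to 20000 UMIs, at most 10% mitochondrial UMIs). Doublets were not called beyond these limits. Genes were filtered with filterByExpr and tested with edgeR 4.0.16 (R 4.3.3; TMM factors, quasi-likelihood test, line and day as terms, 8 libraries), with DESeq2 1.42.0 as an alternative. There was 1 library per line and day. A gene's own part of the spread is therefore how far the 4 days depart from one constant difference between the lines. That part had 3 residual degrees of freedom, and the trend shared over genes counted as 8.55. In simulated counts 92% of genes simulated with a log2 change of 1, and 100% at 2, were called, with 4 false calls among 17077 genes. The fit on the 4 libraries gave 90%, 100% and 5 false calls. All simulated libraries shared the same mean profile and the trended spread, with no difference between lines. Only genes of at least 1 CPM were changed, and only on day 9. The simulation therefore cannot show how either fit behaves where lines differ or genes vary beyond the trend. Log2 ratios within a line used a pseudocount of 1 CPM. Depth was 54414908 to 74185723 UMIs, so 3 counts correspond to 0.0404 to 0.0551 CPM, which covers counting error only. The comparison, the gene lists and the naming rule were chosen with earlier results of these data known. Named genes were the 15 highest rises and 15 deepest falls among called genes moving the same way in both lines with a mean of at least 8 CPM, up to 4 called members per list (2 per direction), the genes the study names, and 5 genes per direction by difference between lines. 1 of the highest rises is not reported here. Genes named outside this rule, such as NDUFA4L2, HMOX1, NQO1, CA9, HIST1H2BD and TJP3, were chosen after their values were seen. Positions are from GENCODE, matched by Ensembl identifier. Besides DESeq2, alternatives dropped the filter on low counts or the line block, or used the 4 libraries alone, other limits on cells, upper-quartile factors, thinned cells and leaving out each library.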

Additional observations from a re-analysis of the deposited data

Results flagged for a closer look

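Genes and groups whose log2 ratio of day 9 to day 6 had opposite signs in the 2 lines were set apart. Each line had 1 library per day, and these differences were not tested. Values are the log2 ratio in SW620-TET2CD minus that in SW620-FLAG. TET2 differed by -0.97, with 0.09 in SW620-FLAG and -0.88 in SW620-TET2CD. IGFL2-AS1 differed by -1.06, PIF1, a DNA helicase, by -1.05 and MANCR by -0.94. CALML3, a calmodulin-like protein, differed by 1.15, MIAT by 0.90 and ABCB10, a mitochondrial transporter, by 0.85. FN1 (fibronectin) differed by 0.78, SNAI1 by 0.58 and CTNNB1 by 0.44. RORA differed by 0.10 and CCND1 (cyclin D1) by -0.04. Among group medians, the mitosis genes differed by -0.48, glycolysis by -0.28, and the cytosolic ribosomal proteins by -0.16. The neuroendocrine markers differed by 0.21, the WNT targets by 0.11, the EMT genes by 0.06 and the MAPK feedback genes by 0.05. The proteases and inhibitors differed by -0.08, the endothelial markers by -0.05 and the TET and DNMT genes by -0.03.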

How the results depend on the processing

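The count of called genes depended on the fit. Against 155 called genes (94 higher, 61 lower), DESeq2 called 396 (186 higher, 210 lower), of which 153 were shared. No filter on low counts gave 978 (469 higher, 509 lower), the 4 libraries alone 3631 (1600 higher, 2031 lower), every barcode 479 (259 higher, 220 lower), no upper limits 209 (97 lower) and a mitochondrial limit of 20% 340 (207 higher, 133 lower). Upper-quartile factors gave 149 higher genes and 224 in all, and cells thinned to 1000 UMIs gave 63 higher genes and 131 in all, 72 of them shared. Without the line block edgeR called 0 genes (0 higher, 0 lower), with 2143 at an unadjusted p under 0.05. Leaving out 1 library gave 1 to 1363 genes (1 to 576 higher, 0 to 795 lower): 1 to 46 without a library of day 6 or 9, 163 and 181 without one of day 12, and 1363 and 1315 without one of day 15. In these fits a day left with 1 library is assumed to vary like the others. The cause was not tested. Of the gene values followed, 388 of 458 kept their direction and side of the threshold in the other alternatives and 67 of 204 with a library of day 6 or 9 left out and 194 of 204 with one of day 12 or 15 left out. With 1 library left out, TET2 ranged from -1.18 to 0.64 and changed sign without SW620-TET2CD day 6. H19, an imprinted RNA at low level, had 1 then 2 UMIs in the FLAG line and 273 then 805 in the TET2CD line. Its fold change therefore rests on the TET2CD line. There the richest 1% of cells held 91.6% of the H19 UMIs on day 6 and 81.6% on day 9. With 1 library left out, H19 ranged from -0.27 to 2.94 and changed sign without SW620-TET2CD day 9. In the reported fit neither TET2 nor H19 passed (adjusted p = 0.507 and 0.0619 by edgeR). TET2 passed with no filter on low counts (0.0107) and with the 4 libraries alone (2.39e-06). H19 passed in these (5e-08 and 1.42e-12) and with every barcode (0.0158), no upper limits (0.0218), the mitochondrial limit of 20% (0.0476), upper-quartile factors (0.0455) and without any 1 library of day 12 or 15 (0.00871 to 0.015).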
